A study of Mus musculus with 23 samples.

Results

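The genes described here encode parts of the B cell receptor complex and of the B cell surface. They were chosen by name from the deposited count tables, and 9 of the 24063 listed gene symbols matched: Cd79a, Cd79b, Ms4a1, Blk, Blnk, Cd37, Faim3 (named Fcmr in RefSeq), Fcrla and Ptprc. Each was measured by RNA sequencing in 23 mouse libraries from 6 groups, all sorted as CD138+B220- primary cells, the surface phenotype of plasma cells and of multiple myeloma, the cancer of plasma cells. The VQ-D1 and VQ-D2 lines, like the VQ-D4 and VQ-D5 lines, carry the genotype Vκ*MYC; Nras LSL Q61R/+; IgG1-Cre (VQ), line t-VK12653 carries Vκ*MYC, and the 3 Control libraries carry IgG1-Cre, which the VQ lines share with them. Each line is the progeny of 1 donor grown in transplanted recipients, with 4 libraries per line. By their recipient numbers, the 4 libraries of each line come from 2 recipients. In VQ-D4 the liver library comes from 1 recipient and the other 3 from another. VQ-D1 and t-VK12653 have 2 spleen and 2 bone marrow libraries each, VQ-D2 has 2 lymph node and 2 spleen libraries, VQ-D5 has 2 lymph node and 2 bone marrow libraries, and VQ-D4 has 1 library each from lymph node, liver, spleen and bone marrow. All 3 Control libraries are from bone marrow. In Vκ*MYC mice a kappa light chain transgene carries a MYC gene that is switched on in germinal centre B cells, and IgG1-Cre acts in B cells that transcribe the IgG1 constant region. Libraries of 1 line are not separate donors, so p-values between lines rest on how far a single donor's libraries vary, which may be technical.

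The B cell receptor is a membrane immunoglobulin paired with the signalling proteins CD79A and CD79B, whose tails are phosphorylated by SRC family kinases such as BLK. The adaptor BLNK then links the kinase SYK to phospholipase C gamma, and surface proteins such as CD20 (encoded by Ms4a1), CD37 and CD45 (encoded by Ptprc) tune the signal. When B cells become plasma cells, which secrete their immunoglobulin, many of these genes are turned down. The gate against B220 removes cells with one protein isoform of CD45. It therefore acts on a product of Ptprc. The same gate was used in all groups, but Ptprc RNA differed between them, and how far the gate selected cells in each was not tested.

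Counts per library totalled 2685579 to 10047314 (median 4626666), and within each group every pair of libraries differed by more than counting noise (chi-square over its degrees of freedom, 4.83 to 24). Levels are given as CPM, reads scaled to the size of the library, which does not adjust for gene length. Sdc1, which encodes CD138, ranged from 251.5 to 1300 CPM in the myeloma libraries and from 627.2 to 927.6 CPM in the Control libraries. Of 12 plasma cell genes, 11 had reads in every library and Ly6d had 0 reads in 1 myeloma library, and in some myeloma libraries Mzb1 (lowest 0.7557 CPM), Cd28 (1.645 CPM) and Tnfrsf17 (1.951 CPM) were near 0. The summed level of the 12 genes was 4919 to 16460 CPM in the myeloma libraries and 35240 to 65300 CPM in the Control libraries. Most of the Control sum was Igj, at 29950 to 57530 CPM, against 14.55 to 10480 CPM in the myeloma libraries. In VQ against Control 2 of the 12 fell and 1 rose (9.27% of all genes tested lower, 13.7% higher). RNA of several other cell types stood higher in the Control libraries. The summed level of 16 neutrophil genes was 4.585 to 1264 CPM in the myeloma libraries and 3388 to 9370 CPM in the Control libraries, that of 10 B cell precursor genes 3.149 to 87.28 and 98.26 to 303.8 CPM, and that of 13 T and NK cell genes 18.77 to 39.02 and 141 to 160.3 CPM, in the same order of groups. That of 7 germinal centre B cell genes was 8.034 to 28.57 and 42.15 to 73.3 CPM, and that of 10 erythroid genes 2.681 to 59.62 and 177.4 to 995.2 CPM. The summed monocyte genes (18.6 to 1467 and 473.7 to 1521 CPM) and dendritic cell genes (52.47 to 869.1 and 184.4 to 256.8 CPM) overlapped. Single genes of these lists went both ways: Ly6c2 had 1.179 to 1380 and 119 to 366.4 CPM, and Lyz2 0 to 55.28 and 288.5 to 1197 CPM. Of the dendritic cell genes, Ly6d, also 1 of the 12 plasma cell genes, had 0 to 820.3 and 118 to 175.4 CPM. Bst2 had 30.96 to 161 and 28.53 to 38.62 CPM, and Flt3 0 to 1.148 and 7.093 to 45.07 CPM. In VQ against Control 5 of 10 monocyte genes tested fell and 0 rose, and 2 of 8 dendritic cell genes fell and 1 rose. Among the B cell precursor and T and NK cell genes, Rag1 had 0 reads in 15 of the 20 myeloma libraries, Ncr1 in 19 and Cd3d in 15. The 3 Control libraries held reads of all 3. Cd247 kept reads in every myeloma library but lay below Control, with 14.24 to 35.1 CPM in myeloma and 40.59 to 71.01 CPM in Control. Myb had 0 to 86.38 CPM in myeloma, with 0 reads in 2 libraries, and 54.12 to 128.6 CPM in Control. The germinal centre gene Mybl1 went the other way, with 2.375 to 18.82 and 2.364 to 3.07 CPM. The summed neutrophil, B cell precursor, germinal centre B cell, T and NK cell and erythroid markers therefore move with every loss reported against Control below. So do single monocyte and dendritic cell genes such as Lyz2 and Flt3. The part of all these markers in those differences was not tested. One VQ-D1 bone marrow library (replicate 1) had 1264 CPM of neutrophil genes, against 370, 172.1 and 23.89 CPM in the line's other libraries. The VQ-D4 liver library (replicate 2) had 10.06 CPM of Ptprc. They are called the 2 libraries that stood apart below. A rule flagged the liver library, but none was applied to the neutrophil values.

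Promoter sequences were shown for genes that moved in opposite directions in every line: Cd79a and Faim3, which were lost, and Blnk, which rose. RefSeq (GRCm38.p6) gave a promoter for 6 of the 9 members. Cd79b, Ms4a1 and Blk had no entry. Each run below is the 250 bases before the transcription start, 5′ to 3′ on the gene's strand. The capitals mark matches, on either strand, to 4 motifs of B cell transcription factors: the octamer ATGCAAAT, the EBF1 palindrome (TCCC, any 2 bases, GGGA), the E-box CAGGTG and the ETS core GGAAGT, none of which overlap. Cd79a lies on chromosome 7 (plus strand, 24897497 to 24901858), and its window is chr7:24897247-24897496. Faim3 lies on chromosome 1 (plus strand, 130865777 to 130880790), with the window chr1:130865527-130865776. Blnk lies on chromosome 19 (minus strand, 40928927 to 40994221), with the window chr19:40994222-40994471.
Cd79a: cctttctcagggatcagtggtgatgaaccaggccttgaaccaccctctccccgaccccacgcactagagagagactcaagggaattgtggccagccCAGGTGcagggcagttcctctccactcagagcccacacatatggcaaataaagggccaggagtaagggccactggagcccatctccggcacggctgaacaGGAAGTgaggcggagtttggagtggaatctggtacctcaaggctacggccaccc
Faim3: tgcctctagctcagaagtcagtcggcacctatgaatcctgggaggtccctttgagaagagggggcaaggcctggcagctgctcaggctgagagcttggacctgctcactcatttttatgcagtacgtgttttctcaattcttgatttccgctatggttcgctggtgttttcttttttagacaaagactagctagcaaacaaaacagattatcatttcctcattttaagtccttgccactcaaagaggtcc
Blnk: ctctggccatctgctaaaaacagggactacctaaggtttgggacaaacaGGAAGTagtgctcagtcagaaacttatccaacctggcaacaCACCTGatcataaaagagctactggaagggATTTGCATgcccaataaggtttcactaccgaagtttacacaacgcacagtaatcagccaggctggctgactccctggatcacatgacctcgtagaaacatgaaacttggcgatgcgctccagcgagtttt
The window of Cd79a, which was lost, held an E-box 154 to 149 bases before the start and an ETS core 54 to 49 bases before it. The window of Blnk, which rose, held an ETS core (201 to 196 bases before the start), an E-box on the opposite strand (160 to 155) and the octamer on the opposite strand (130 to 123, read as ATTTGCAT). None of the 4 motifs matched in the window of Faim3, and the EBF1 palindrome matched in none of the 6 members' windows. Of 32851 promoter windows of this length, 1.6% held the octamer, 0.779% the EBF1 palindrome, 17.2% the E-box and 19.7% the ETS core. These matches are letters in a window and do not show binding. Only exact letters were searched, so a window without a match may still hold a variant of the motif.

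RNA of Cd79a, the signalling partner of membrane immunoglobulin, was nearly absent from every myeloma library. Cd79a had 0, 0, 0.0966 and 0.139 CPM in VQ-D1, and 0, 0.869, 0.388 and 0 CPM in VQ-D2. It had 0.378, 0.155, 0.649 and 0 CPM in VQ-D4, and 0.719, 0.689, 0.393 and 0.233 CPM in VQ-D5. The t-VK12653 libraries had 0.430, 1.51, 0.679 and 0 CPM, against 179.9, 201.2 and 356 CPM in the Control libraries. No myeloma library came near the lowest Control library, and 6 of the 20 held no read. In reads, the 20 myeloma libraries together held 39 and the 3 Control libraries 2500. Cd79a fell in VQ against Control by 9.57 on the log2 scale (4 line sums against 3 Control libraries, SE 0.594, edgeR adjusted p = 0.0011). It also fell in each line: VQ-D1 had 2 reads, and the ratio of Control over VQ-D1 was 3520, with a 95% counting interval of 973 to 29100 (adjusted p = 1.17e-11). The change was −9.43 in VQ-D2 (SE 1.13, adjusted p = 7.77e-07), −9.32 in VQ-D4 (SE 0.656, adjusted p = 7.36e-10), −8.42 in VQ-D5 (SE 0.529, adjusted p = 5.62e-11) and −8.67 in t-VK12653 (SE 0.537, adjusted p = 8.89e-11). Fewer cells with the RNA and less RNA per cell cannot be told apart in bulk libraries. Within the Control libraries Cd79a varied 1.98-fold. In replicates 1, 2 and 3, beside the Cd79a values above, the summed level of B cell precursor genes was 303.8, 249 and 98.26 CPM and that of germinal centre B cell genes 42.15, 62.42 and 73.3 CPM, and the part of either in the level of Cd79a was not tested.

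**Figure D1:**
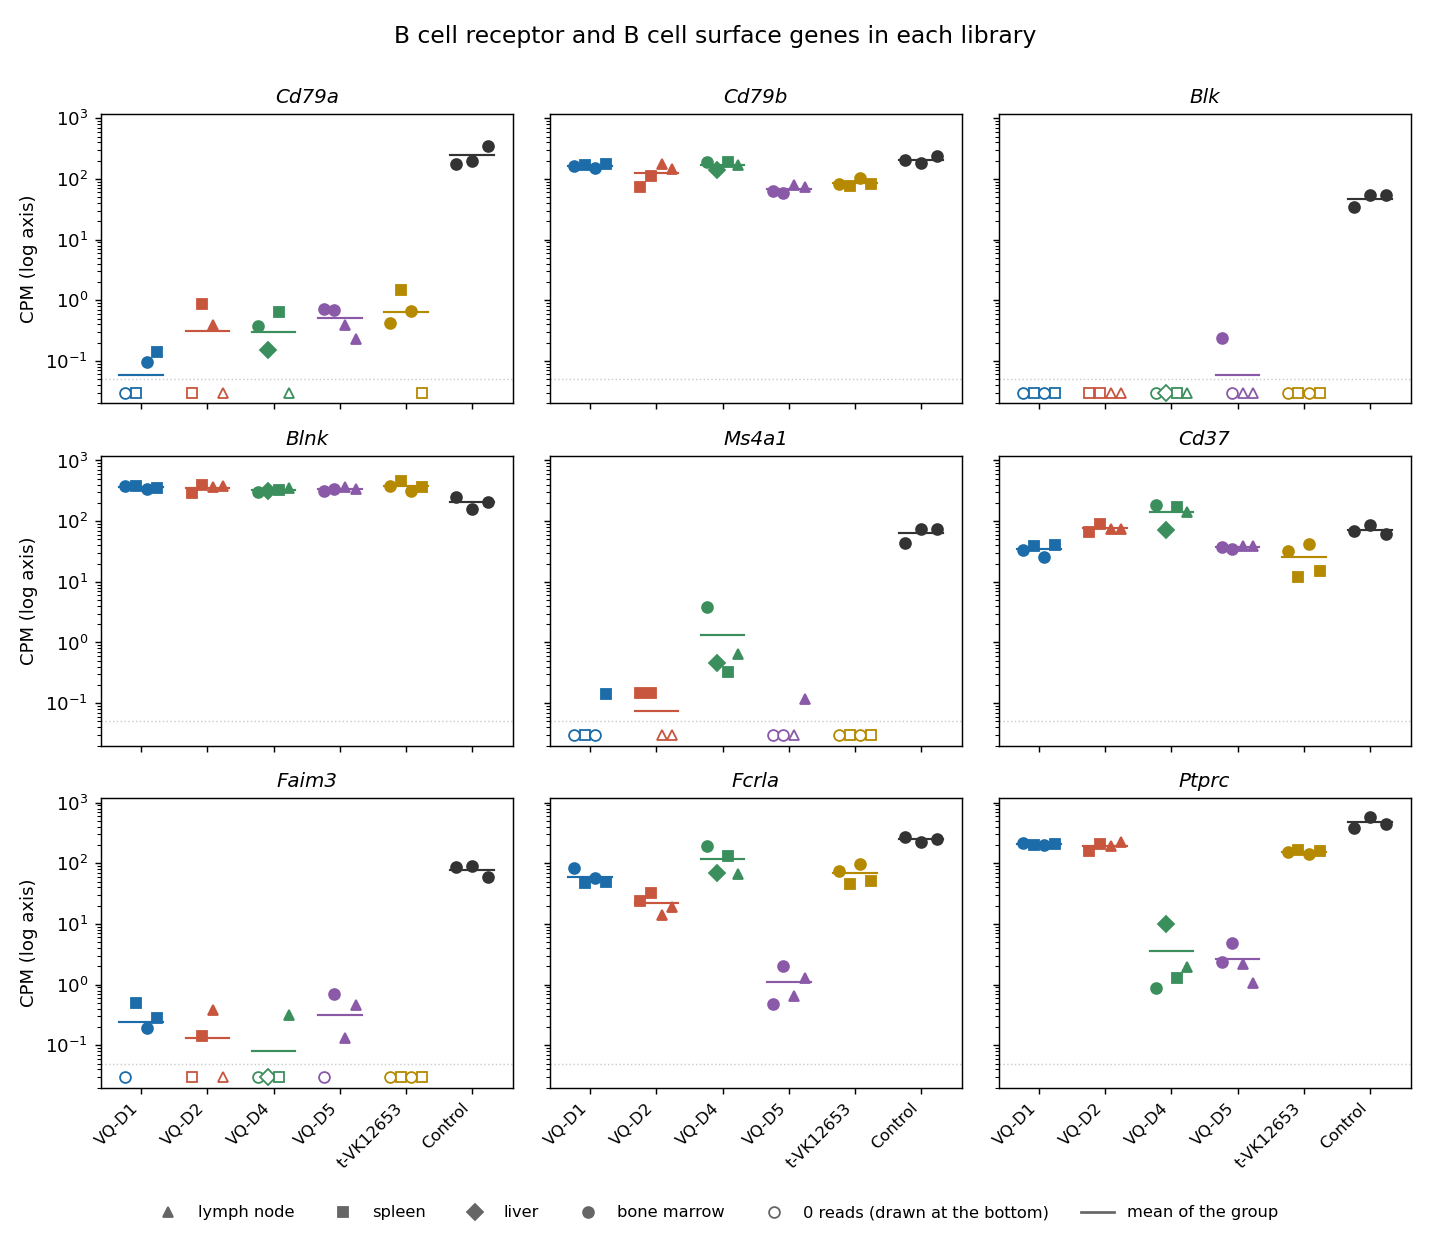
Each panel plots 1 gene, with CPM on a log axis and 1 point per library; shapes give the site, bars the mean of a group (left out under 0.05 CPM), and open symbols at the bottom libraries with 0 reads. Cd79a, Blk, Ms4a1 and Faim3 lie at or below 3.904 CPM in every myeloma library and at 34.04 CPM or more in every Control library, Blnk lies above all Control libraries in every line, and Ptprc and Fcrla differ between lines.

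Cd79b, which encodes the partner chain of CD79A, kept its RNA in every myeloma library but was called lower in VQ-D2, VQ-D5 and t-VK12653. Of the 20 myeloma libraries, 18 lay below all Control libraries. Cd79b averaged 165.5 ± 11 CPM in VQ-D1 and 126.9 ± 43.7 CPM in VQ-D2 (SD, n = 4 libraries each). Its mean was 172.6 ± 23.3 CPM in VQ-D4, 69.1 ± 9.58 CPM in VQ-D5 and 87.2 ± 11.01 CPM in t-VK12653 (SD, n = 4 each), against 209 ± 29.8 CPM in the Control libraries (SD, n = 3). It fell, at −1.78 on the log2 scale, in VQ-D5 (SE 0.182, adjusted p = 3.88e-08), at −1.23 in t-VK12653 (SE 0.174, adjusted p = 4.79e-06) and at −0.89 in VQ-D2 (SE 0.198, adjusted p = 0.000656). The differences of −0.29 in VQ-D1 (SE 0.173, adjusted p = 0.153) and −0.26 in VQ-D4 (SE 0.186, adjusted p = 0.25) did not pass, nor did VQ against Control (−0.52, SE 0.301, adjusted p = 0.241). The VQ-D1 value passed when bone marrow libraries alone were fitted (−0.40, adjusted p = 0.0399). The mean of the VQ lines in the fit of 23 libraries, which takes libraries and not lines as samples, was called lower (−0.81, edgeR adjusted p = 0.000106). In the order of levels VQ-D4, VQ-D1 and VQ-D2 overlapped one another, and t-VK12653 and VQ-D5 overlapped at the low end, within reach of the lowest VQ-D2 library (74 CPM). On the authors' deposited TPM, which adjusts for gene length, the level of Cd79a was 0% to 1.74% of that of Cd79b within a myeloma library and 79.9% to 133% within a Control library.

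Blk, the SRC family kinase of B cells, left 1 read in the 20 myeloma libraries, in VQ-D5 replicate 1 (0.240 CPM). The other 19 had 0 reads, against 34.04, 53.89 and 53.86 CPM in the Control libraries. Against the 468 reads of the Control libraries, and with a floor of 3 counts over a line, Blk was at least 439-fold lower in VQ-D1, at least 372-fold lower in VQ-D2, at least 327-fold lower in VQ-D4 and at least 263-fold lower in t-VK12653. The ratio of Control over VQ-D5 was 1180, with a counting interval of 211 to 46700. edgeR called the loss in VQ against Control (adjusted p = 0.0011) and in each line except VQ-D2. In VQ-D2, with 0 reads and no bone marrow library, the fit with a tissue term gave no estimate (adjusted p = 1). The VQ-D2 difference was called by DESeq2 (adjusted p = 7.98e-10) and by edgeR without the tissue term (adjusted p = 1.68e-08). The Blk calls also ended in the mean of the VQ lines against Control (adjusted p = 1) and in VQ-D4 without its replicate 1 (adjusted p = 1).

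Blnk, the adaptor downstream of SYK, went the other way and was the most abundant member per length in every line. By deposited TPM, the level of Blnk was 422.3 ± 17.1 in VQ-D1 and 453.3 ± 57.8 in VQ-D2 (SD, n = 4 each). It was 324.3 ± 30 TPM in VQ-D4, 368.3 ± 18.4 TPM in VQ-D5 and 361.2 ± 71.3 TPM in t-VK12653 (SD, n = 4 each). In the Control libraries it was 240.3 ± 53.5 TPM (SD, n = 3), below Cd79a, Cd79b and Fcrla. In CPM, the 16 VQ libraries had a lowest value of 293.9, a median of 347.3 and a highest of 398.7, and t-VK12653 had 378.3, 464.7, 317.9 and 372.3, against 253.2, 160 and 210.7 in the Control libraries. All 20 myeloma libraries lay above all 3 Control libraries. Blnk rose by 0.86 on the log2 scale in VQ against Control (SE 0.195, adjusted p = 0.0199). It rose in each line. The change was 0.74 in VQ-D1 (SE 0.139, adjusted p = 1e-04), 0.64 in VQ-D2 (SE 0.158, adjusted p = 0.00164), 0.55 in VQ-D4 (SE 0.151, adjusted p = 0.00392), 0.61 in VQ-D5 (SE 0.142, adjusted p = 0.000772) and 0.82 in t-VK12653 (SE 0.141, adjusted p = 3.79e-05). Among the 6 pairs of VQ lines Blnk was called in none, with differences of −0.06 (SE 0.132) to 0.19 (SE 0.134) and adjusted p from 0.261 to 0.885. The call in VQ against Control rests on few samples and ended without Control replicate 2 (0.65, adjusted p = 0.0955), without Control replicate 3 (0.89, adjusted p = 0.0809), without line VQ-D2 (adjusted p = 0.0576) and in bone marrow alone (0.68, adjusted p = 0.0797). The VQ-D4 call also ended in bone marrow alone (0.54, adjusted p = 0.0626).

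Ms4a1, which encodes the surface protein CD20, was lost with 1 partial exception. It had at most 0.149 CPM in any library of VQ-D1, VQ-D2, VQ-D5 or t-VK12653. In VQ-D4 it had 3.90 CPM in bone marrow (31 reads), 0.464 in liver, 0.324 in spleen and 0.640 in lymph node, against 43.77, 75.03 and 74.88 CPM in the Control libraries. The VQ-D4 bone marrow library therefore held 31 of the 41 Ms4a1 reads of all myeloma libraries. Ms4a1 fell by 6.95 in VQ against Control (SE 1.33, adjusted p = 0.0123), a call that ended in bone marrow libraries alone (−5.68, adjusted p = 0.0501). It fell, at −4.30 on the log2 scale, in VQ-D4 (SE 0.603, adjusted p = 7.37e-06). Without the bone marrow library the fit gave −8.61. That value relies on bone marrow terms from the other lines, with at most 0.149 CPM, and is not a measured change. The ratio of Control over VQ-D1 was 1800 (1 read, counting interval 322 to 71300), over VQ-D2 762 (2 reads, 210 to 6310) and over VQ-D5 1610 (1 read, 288 to 63800). In t-VK12653, with 0 reads, Ms4a1 was at least 360-fold lower. On the GRCm38.p6 annotation the gene overlaps 4930526L06Rik, and the strand setting of counting is not stated, so reads of the pair may not be told apart. All 5 lines passed for Ms4a1.

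Faim3, which encodes the Fc receptor for IgM, was lost without exception. Over the 16 VQ libraries Faim3 had a lowest level of 0, a median of 0.138 and a highest of 0.689 CPM, and all t-VK12653 libraries had 0 reads, against 85.6, 90.38 and 60.43 CPM in the Control libraries. The VQ lines held 19 reads and the Control libraries 759. Faim3 fell, at −8.48 on the log2 scale, in VQ against Control (SE 0.543, adjusted p = 0.00115), at −8.46 in VQ-D1 (SE 0.643, adjusted p = 2.15e-09) and at −8.43 in VQ-D5 (SE 0.661, adjusted p = 1.84e-09). The ratio of Control over VQ-D2 was 603 (3 reads, counting interval 205 to 2930) and over VQ-D4 1590 (1 read, 285 to 63000), and Faim3 was at least 427-fold lower in t-VK12653. All 5 lines passed for Faim3.

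Ptprc, which encodes the leukocyte phosphatase CD45, divided the lines. Ptprc had 212, 198, 201.5 and 205.7 CPM in VQ-D1 and 157, 209.3, 189.7 and 224.1 CPM in VQ-D2. It had 0.882, 10.06, 1.30 and 1.92 CPM in VQ-D4 and 2.40, 4.82, 2.23 and 1.05 CPM in VQ-D5. The t-VK12653 libraries had 154.1, 167.8, 140.8 and 159.3 CPM, against 384.2, 580.2 and 451.6 CPM in the Control libraries. Every myeloma library lay below every Control library, but 8 libraries of 2 lines had almost no Ptprc RNA while the other 12 kept it at over 140 CPM. Ptprc fell, at −8.56 on the log2 scale, in VQ-D4 (SE 0.342, adjusted p = 4.9e-13) and at −7.61 in VQ-D5 (SE 0.277, adjusted p = 3.8e-14). It fell, at −1.19 on the log2 scale, in VQ-D1 (SE 0.192, adjusted p = 2.82e-05), at −1.25 in VQ-D2 (SE 0.251, adjusted p = 0.000303) and at −1.58 in t-VK12653 (SE 0.197, adjusted p = 1.26e-06). In VQ against Control, where the 4 line sums are the sample, the difference of −2.08 did not pass (SE 1.37, adjusted p = 0.307). The liver library has a tissue term to itself, so the VQ-D4 estimates rest on the line's other 3 libraries; without the tissue term the Ptprc change was −6.90 (adjusted p = 1.28e-10). In the order of levels, no difference was called between VQ-D1 and VQ-D2 (0.05, SE 0.206, adjusted p = 0.854) or between VQ-D4 and VQ-D5 (−0.95, SE 0.491, adjusted p = 0.105).

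Fcrla, which encodes an intracellular relative of the Fc receptors in B cells, was graded across the lines. Fcrla had 84.89, 47.77, 56.71 and 48.64 CPM in VQ-D1, and 23.72, 32.02, 13.96 and 19.2 CPM in VQ-D2. It had 194.2, 70.41, 131.4 and 67.8 CPM in VQ-D4, and 0.479, 2.07, 0.655 and 1.28 CPM in VQ-D5. The t-VK12653 libraries had 75.88, 46.27, 98.04 and 51.55 CPM, against 272, 222 and 249.3 CPM in the Control libraries. The highest line mean, in VQ-D4, was 103 times the lowest, in VQ-D5, and the ranges of VQ-D4, t-VK12653 and VQ-D1 overlapped. Fcrla fell, at −7.05 on the log2 scale, in VQ-D5 (SE 0.275, adjusted p = 1.78e-14), at −2.53 in VQ-D2 (SE 0.23, adjusted p = 1.13e-08), at −1.78 in VQ-D1 (SE 0.183, adjusted p = 5.36e-08) and at −1.61 in t-VK12653 (SE 0.182, adjusted p = 2.05e-07). In VQ-D4 the difference of −0.37 did not pass (SE 0.202, adjusted p = 0.124), and without the tissue term it was called at −1.09 (adjusted p = 0.00923). VQ against Control did not pass (−2.13, SE 1.09, adjusted p = 0.195).

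Cd37, which encodes a tetraspanin of mature B cells, moved in both directions. Cd37 averaged 34.5 ± 6.29 CPM in VQ-D1 and 75.8 ± 9.27 CPM in VQ-D2 (SD, n = 4 each). Its mean was 140.6 ± 49.5 CPM in VQ-D4, 37.9 ± 2.04 CPM in VQ-D5 and 25.2 ± 13.99 CPM in t-VK12653 (SD, n = 4 each), against 71.7 ± 13.1 CPM in the Control libraries (SD, n = 3). It was the only member called higher in 1 line and lower in others. Cd37 rose by 1.33 in VQ-D4 (SE 0.304, adjusted p = 0.00124), although the liver library, at 71.03 CPM, lay within the Control range. It fell, at −0.93 on the log2 scale, in VQ-D1 (SE 0.296, adjusted p = 0.0122), at −0.81 in VQ-D5 (SE 0.301, adjusted p = 0.0253) and at −1.46 in t-VK12653 (SE 0.293, adjusted p = 0.00037). The VQ-D1 call ended without Control replicate 2 (adjusted p = 0.0513) or VQ-D1 replicate 3 (adjusted p = 0.0801). The VQ-D5 call ended without Control replicate 2 (adjusted p = 0.0833), VQ-D5 replicate 1 (adjusted p = 0.0755) or VQ-D5 replicate 2 (adjusted p = 0.0885). No difference was called in VQ-D2 (0.29, SE 0.325, adjusted p = 0.471) or in VQ against Control (0.13, SE 0.494, adjusted p = 0.866).

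**Figure D2:**
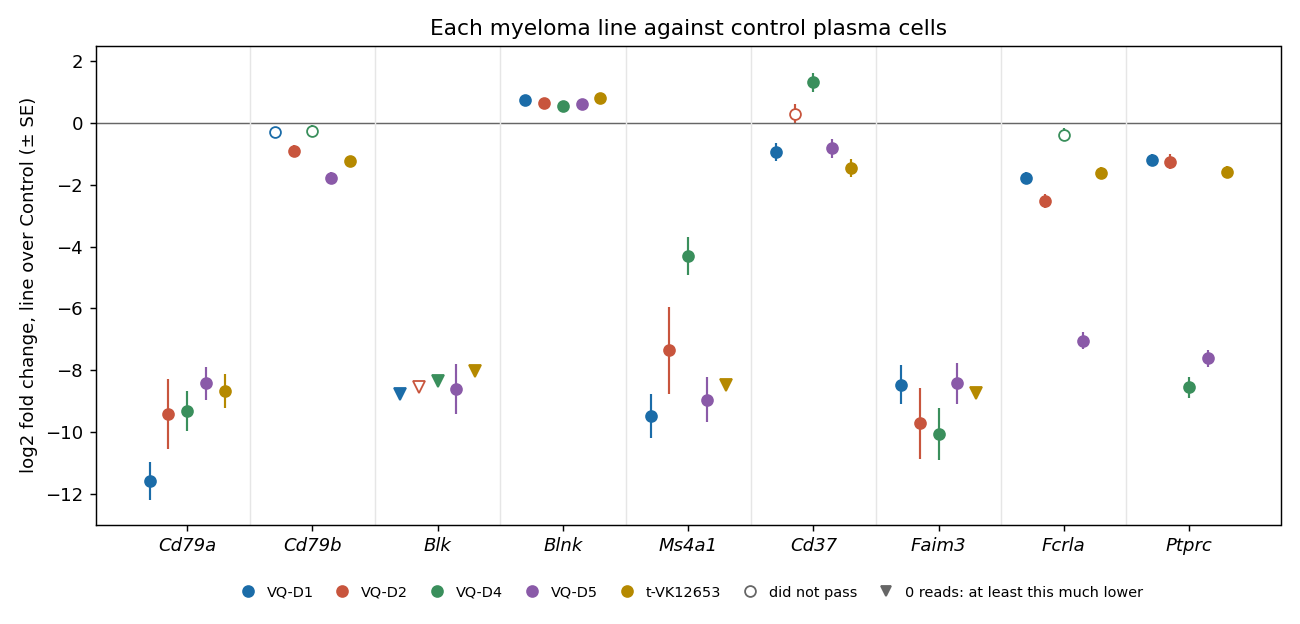
Log2 fold change of each myeloma line over Control for the 9 genes, with the standard error; filled symbols passed at an adjusted p under 0.05, and triangles mark lines with 0 reads at the smallest fold that a floor of 3 counts allows. Cd79a, Blk, Ms4a1 and Faim3 lie far below 0 in all 5 lines, Ptprc does so in VQ-D4 and VQ-D5 and Fcrla in VQ-D5, and Blnk lies above 0 in all 5.

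Counted together, 4 of the 9 members fell in VQ against Control and 1 rose, where edgeR called 9.27% of the 13870 genes tested lower and 13.7% higher. The median log2 fold change was −2.13 over the members and 0.185 over all genes tested. In the fit of all 23 libraries, with 12867 genes tested, 7 members fell and 1 rose in VQ-D1 (29.7% of genes called lower and 29.7% higher). In VQ-D2 6 fell and 1 rose (27.8% lower, 29.6% higher), and in VQ-D4 5 fell and 2 rose (26.9% lower, 27.5% higher). In VQ-D5 8 fell and 1 rose (32.5% lower, 31.2% higher), as in t-VK12653 (28.1% lower, 28.8% higher). The members' medians were −1.78, −2.53, −4.30, −7.61 and −1.61 in that order of lines, against 0.0243, 0.00497, 0.013, −0.0446 and 0.0148 over all genes. These comparisons share the same 3 Control libraries. Cd79a, Blk, Ms4a1 and Faim3 were kept by the filter through their Control reads alone, so they could only be called lower. The members were also chosen with earlier results known. The counts and medians therefore describe these genes and do not test them as a set. Without the 2 libraries that stood apart, a setting chosen after the data were seen, the number of members called against Control was 5 for VQ and 8, 7, 7, 9 and 9 for the lines, as with them.

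The VQ lines were set against t-VK12653, which carries MYC without mutant Nras, with 1 donor on the t-VK12653 side. The genotype given for t-VK12653 also lacks IgG1-Cre, so mutant Nras, IgG1-Cre and donor cannot be told apart. The p-values rest on the spread of libraries within lines and not on the spread between the VQ lines. Ptprc and Fcrla were lower and Cd37 and Cd79b higher in the mean of the VQ lines (31.6% of genes called lower and 29.6% higher). The size was −3.07 for Ptprc (SE 0.169, adjusted p = 9.43e-12), −1.32 for Fcrla (SE 0.152, adjusted p = 1.66e-07), 1.43 for Cd37 (SE 0.237, adjusted p = 4.61e-05) and 0.42 for Cd79b (SE 0.132, adjusted p = 0.00905). The libraries of single VQ lines, which were not tested singly against t-VK12653, did not all follow these means. Ptprc ranged from 198 to 212 CPM in VQ-D1, above all t-VK12653 libraries (140.8 to 167.8 CPM), while VQ-D4 and VQ-D5 lay far below them. Fcrla in VQ-D4 (67.8 to 194.2 CPM) reached above the t-VK12653 libraries (46.27 to 98.04 CPM). Cd37 in VQ-D1 (26.09 to 39.86 CPM) and VQ-D5 (35.35 to 39.63 CPM) lay inside the range of t-VK12653 (12.04 to 41.39 CPM). Cd79b in VQ-D5 (58.76 to 80.69 CPM) lay mostly below the t-VK12653 libraries (77.86 to 103.1 CPM). For Blnk no difference was called (−0.19, SE 0.1, adjusted p = 0.112), nor for Cd79a (27 reads over 16 libraries and 12 reads over 4, adjusted p = 0.255).

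Between the VQ lines differences were called in Ptprc, Fcrla, Cd37, Cd79b, Ms4a1 and, in 1 pair, Cd79a. VQ-D1 over VQ-D2 had 1 member lower and 2 higher (26.5% and 24.8% of genes), and VQ-D1 over VQ-D4 had 3 lower and 1 higher (20.8% and 20.4%). VQ-D1 over VQ-D5 had 1 lower and 3 higher (29.7% and 28.8%), and VQ-D2 over VQ-D4 had 4 lower and 1 higher (27.6% and 29.4%). VQ-D2 over VQ-D5 had 0 lower and 4 higher (20% and 18.6%), and VQ-D4 over VQ-D5 had 0 lower and 4 higher (29.6% and 29.1%). Ptprc was higher by 7.36 in VQ-D1 over VQ-D4 (SE 0.326, adjusted p = 1.37e-12) and by 6.36 in VQ-D2 over VQ-D5 (SE 0.256, adjusted p = 4.75e-13), and the 4 libraries of each such pair did not overlap. Fcrla was higher by 6.68 in VQ-D4 over VQ-D5 (SE 0.261, adjusted p = 2.41e-14) and lower in VQ-D2 over VQ-D4, at −2.16 (SE 0.187, adjusted p = 4.46e-09). VQ-D4 and VQ-D5, the lines with almost no Ptprc RNA, thus stood at the 2 ends of the Fcrla range. Cd37 was lower in VQ-D1 than in VQ-D4 at −2.26 (SE 0.267, adjusted p = 2.82e-06). Cd79a was called lower in VQ-D1 than in VQ-D5, on 2 and 11 reads: the ratio of VQ-D5 over VQ-D1 was 6.15, with a counting interval of 1.34 to 57.1, and the call was not made without the 2 libraries that stood apart.

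The site of the sorted cells was compared within the lines. In lymph node against bone marrow 1 member, Fcrla, fell, and it was the single gene of all 12867 called lower (0.00777%), with 1 gene (0.00777%) called higher. In recipient pairs joined by the numbers in the table names, Fcrla had 67.8 CPM in lymph node against 194.2 CPM in bone marrow of the VQ-D4 recipient. It had 0.655 against 0.479 and 1.28 against 2.07 CPM in the VQ-D5 recipients, where all 4 values lie under 3 CPM. On the log2 scale the difference was −1.37 (SE 0.208, adjusted p = 0.0105). The call ended without VQ-D4 replicate 1 (adjusted p = 0.0996), VQ-D4 replicate 4 (adjusted p = 0.286), VQ-D2 replicate 2 (adjusted p = 0.0547) or VQ-D2 replicate 3 (adjusted p = 0.0603). Against the spleen, Fcrla had 13.96 in lymph node against 23.72 CPM and 19.2 against 32.02 CPM in the VQ-D2 recipients, and 67.8 against 131.4 CPM in the VQ-D4 recipient. Lymph node against spleen did not pass for it (−0.74, SE 0.187, adjusted p = 0.347), and was called with recipient as a block (−0.76, adjusted p = 0.0293). In spleen against bone marrow, Fcrla was lower in spleen in 5 of 5 recipient pairs: 47.77 against 84.89 and 48.64 against 56.71 CPM in VQ-D1, 131.4 against 194.2 CPM in VQ-D4, and 46.27 against 75.88 and 51.55 against 98.04 CPM in t-VK12653. That difference did not pass either (−0.63, SE 0.138, adjusted p = 0.153) and was called by DESeq2 (adjusted p = 0.0247) and with recipient as a block (−0.62, adjusted p = 0.0215). Neutrophil RNA moved with the site: its summed level was 4.585 to 14.67 CPM in the 5 lymph node libraries, 7.137 to 172.1 CPM in the 7 spleen libraries and 78.97 to 1264 CPM in the 7 bone marrow myeloma libraries. Its part in the Fcrla difference was not tested.

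**Figure D3:**
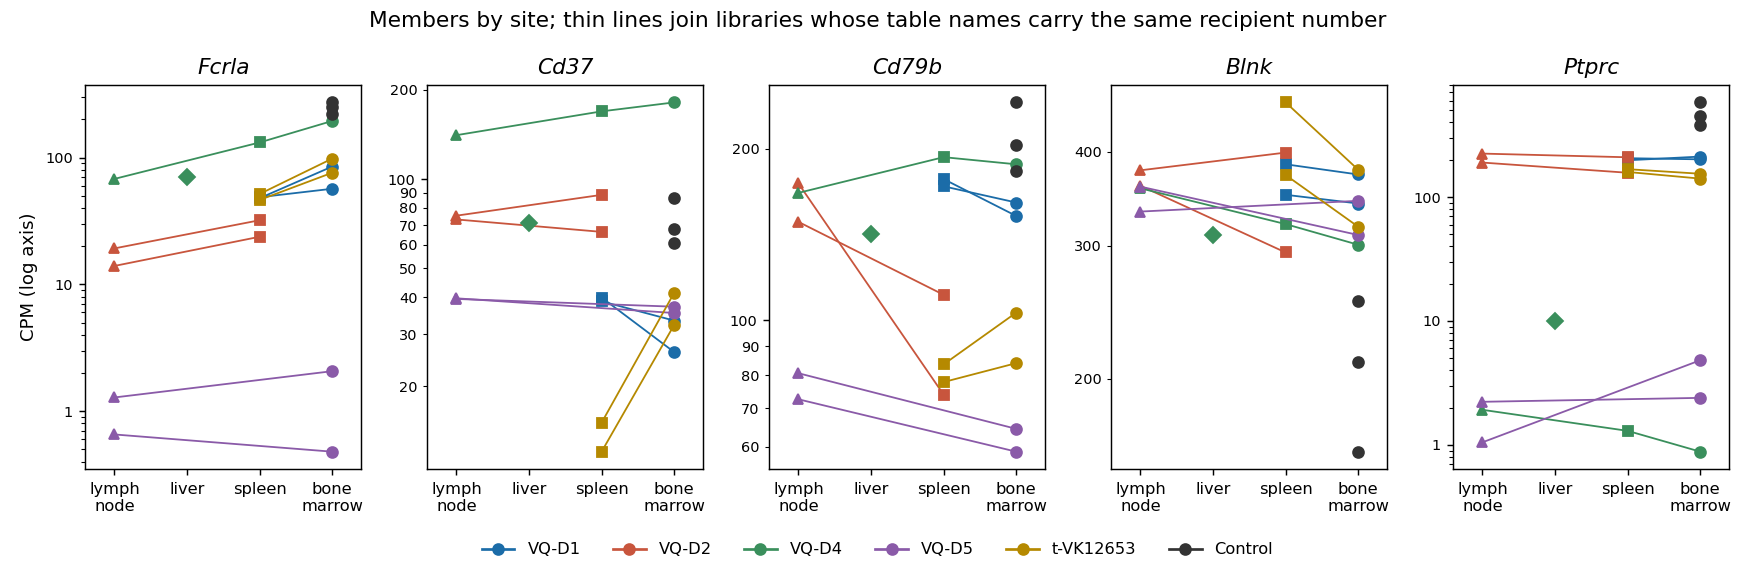
CPM (log axis, with its own range per panel) of 5 members by site, with 1 point per library and thin lines joining libraries of 1 recipient; the single liver library is not joined. Fcrla is lowest in lymph node and highest in bone marrow in VQ-D4, and Cd37 is lower in spleen than in bone marrow in both t-VK12653 recipients. Blnk stays between 293.9 and 464.7 CPM in the myeloma libraries at every site. In the Control libraries, all from bone marrow, it lies at 160 to 253.2 CPM.

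No other member was called by site. edgeR called 0% of genes in either direction in spleen against bone marrow, and 0.00777% lower and 0.0233% higher in lymph node against spleen. At an unadjusted p under 0.05, edgeR had 829 genes (1 member) in spleen against bone marrow, 886 (3 members) in lymph node against bone marrow and 651 (2 members) in lymph node against spleen, and DESeq2 called 41, 40 and 11 genes. Blnk differed by 0.17 in lymph node against bone marrow (SE 0.113, adjusted p = 0.843) and by 0.12 in spleen against bone marrow (SE 0.0972, adjusted p = 0.894). Ptprc differed by −0.03 in spleen against bone marrow (SE 0.155, adjusted p = 0.997), and in VQ-D4 it was 1.92 CPM in lymph node, 10.06 in liver, 1.30 in spleen and 0.882 in bone marrow. Cd37 gave a contrast between VQ-D1 and t-VK12653, the lines with spleen and bone marrow from both recipients. It had 38.71 and 39.86 CPM in spleen against 33.32 and 26.09 CPM in bone marrow of VQ-D1, and 12.04 and 15.08 CPM in spleen against 32.25 and 41.39 CPM in bone marrow of t-VK12653. The spleen effect in VQ-D1 minus that in t-VK12653 was 1.86 on the log2 scale (SE 0.287, unadjusted p = 5.2e-06 and adjusted p = 0.0669 with edgeR), which did not pass. In that test edgeR called 0% of genes in either direction, 589 had an unadjusted p under 0.05, and DESeq2 called 4, Cd37 among them (adjusted p = 0.00068).

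Of 32 further genes of B cell receptor signalling, 13 fell and 0 rose in VQ against Control (9.27% of all genes tested lower, 13.7% higher), with a median log2 fold change of −0.818 against 0.185 over all genes. In the VQ lines fitted singly, 23 to 25 fell and 0 to 2 rose, where 26.9% to 32.5% of all genes were called lower and 27.5% to 31.2% higher. In t-VK12653 25 fell and 3 rose (Pik3r1, Rasgrp3 and Inpp5d; 28.1% of all genes lower, 28.8% higher), with a median of −1.38 against 0.0148. Itpr1, a calcium channel opened by the phospholipase C product, averaged 0.978 ± 0.675 CPM over the 16 VQ libraries and 0.292 ± 0.246 CPM over the 4 of t-VK12653, against 175.6 ± 79.3 CPM over the 3 Control libraries (SD), and the log2 change in VQ was −7.38 (SE 0.428, adjusted p = 0.0011). Prkcb, the protein kinase C of B cell receptor signalling, averaged 1.503 ± 2.23, 1.01 ± 1.23 and 172.2 ± 74.5 CPM in the same order and fell by 6.76 in VQ (SE 0.709, adjusted p = 0.00323). Vav3, a guanine nucleotide exchange factor, fell (−4.76, SE 1.05, adjusted p = 0.0188), as did Bank1, a B cell scaffold (−4.59, SE 0.45, adjusted p = 0.00268). The kinase Syk, which acts between the receptor and BLNK, was lower but present: it averaged 165.6 ± 57.5 CPM in VQ and 183.6 ± 29.4 CPM in t-VK12653, against 513 ± 31.9 CPM in Control, and fell by 1.54 in VQ (SE 0.239, adjusted p = 0.00659). Syk was named after its values were seen, for its place beside BLNK.

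Of 34 further B cell surface genes, 33 were tested, of which 18 fell and 1 rose in VQ against Control (9.27% of all genes lower, 13.7% higher), with a median of −3.09 against 0.185. In the VQ lines fitted singly 26 to 29 fell and 1 to 3 rose (26.9% to 32.5% of all genes lower, 27.5% to 31.2% higher). In t-VK12653 25 fell and 1 rose (28.1% lower, 28.8% higher), with a median of −3.32 against 0.0148. Those with the largest fall in VQ were Cd83 (−9.39, SE 0.702, adjusted p = 0.00134), Btla (−8.29, SE 0.659, adjusted p = 0.00153) and Cd200 (−8.19, SE 0.874, adjusted p = 0.00328). BTLA is an inhibitory receptor of lymphocytes. Btla had 27 reads over the 16 VQ libraries and 0 over the 4 of t-VK12653, against 984 reads over the 3 Control libraries. Ly9, a SLAM family receptor, was the gene that rose in VQ (0.98, SE 0.216, adjusted p = 0.0186), with 88.4 to 239.4 CPM in VQ and 76.77 to 90.57 CPM in t-VK12653, against 72.99 to 91.69 CPM in Control. In t-VK12653 no difference was called for Ly9 (0.05, adjusted p = 0.766). Of both lists, 0 genes were called in opposite directions in VQ and in t-VK12653. With genes at 0 reads put at their bound, the medians were the same. Genes with almost no reads in the myeloma libraries, such as Btla, passed the filter through Control and could only be called lower. The lists were chosen with earlier results known, so their counts and medians are descriptions.

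**Figure D4:**
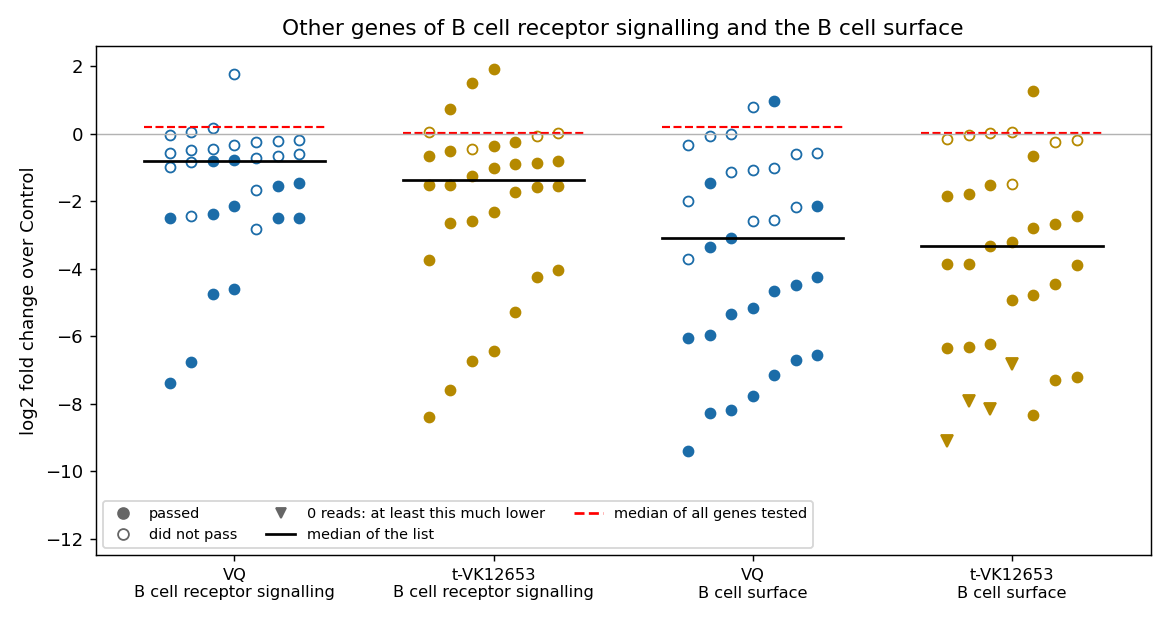
Log2 fold change over Control of 32 other B cell receptor signalling genes and 33 other B cell surface genes, in VQ (4 line sums) and in t-VK12653; filled symbols passed at an adjusted p under 0.05, and triangles mark genes with 0 reads in t-VK12653 at their bound. The list medians, at −0.818, −1.38, −3.09 and −3.32 from left to right, lie below the medians of all genes tested.

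Across the 23 libraries, the patterns most like that of Cd79a by Pearson's r of log2 CPM were those of Blk (0.976), Serpina3f (0.969), Hcrtr2 (0.968), Cdk14 (0.965) and Trib2 (0.964). For Cd79b they were Mon2 (0.876), Lrp10 (0.875), Zbp1 (0.856), Dcaf11 (0.855) and Vav1 (0.854), and for Ptprc Tmed8 (0.938), Smim15 (0.935), Exoc7 (0.935), Mccc1 (0.893) and Cep170 (0.892). Between members, r was 0.39 for Cd79a with Cd79b and 0.95 for Cd79a with Faim3 over all libraries, and −0.37 and −0.0869 over the 20 myeloma libraries. These values are descriptions: the libraries fall into 6 groups, and the first set is spread mainly between myeloma and Control.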

How the data were processed

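RNA of CD138+B220- sorted cells was made into stranded total RNA libraries with a kit for small inputs, per the labels' protocols. The submitters' processing notes list featureCounts, STAR and DESeq2, with the builds mm10 and GRCm38, but neither versions nor the strand setting of counting. The authors deposited raw read counts per gene symbol, with TPM and FPKM beside them, per the file headers. FPKM was deposited by the authors and not used here. Deposited TPM served only to compare genes within a library.

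Counts of 1 Rn45s row made up 16.4% to 27.3% of each library. Counts were scaled by TMM and tested with edgeR 4.0.16 (robust quasi-likelihood F-test, R 4.3.3) after filterByExpr (minimum count 10, total 15), with Benjamini-Hochberg adjustment over all genes tested and a threshold of 0.05. VQ against Control used 1 sum of counts per VQ line. All other comparisons used 23 libraries with group and tissue terms, and the difference of spleen effects used group by tissue means. These fits took libraries of 1 recipient as separate samples. Recipient entered only as a block in an alternative for the site comparisons. Correlations used log2 CPM with a prior count of 2. A group with 0 reads was set at a floor of 3 counts over the group. With 1 to 3 reads the ratio has an exact binomial interval (95%), and both cover counting error only. The alternatives were DESeq2 1.42.0, RLE scaling, no filter, no tissue term, bone marrow alone, replicate and recipient blocks, and leaving out each library or line. The tests were run on simulated counts of independent libraries, which cannot show how libraries that share a donor or recipient affect them.

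All 9 members are described. From the lists, up to 4 called genes per direction with the largest change in VQ against Control were named, if the group with more RNA reached 10 CPM (1 such gene is not reported here), and the 5 genes most correlated with Cd79a, Cd79b and Ptprc. The members and lists were chosen with earlier results of these data known.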

Additional observations from a re-analysis of the deposited data

Results flagged for a closer look

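The VQ-D4 liver library (replicate 2) had 10.06 CPM of Ptprc, against 0.882, 1.30 and 1.92 CPM in the line's bone marrow, spleen and lymph node libraries. It was the 1 of 24 gene and line groups checked in which a library lay this far from the others; chance gives about 1 in 20 such groups. The line's only liver library is this one, so site and library cannot be told apart.

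The spleen effect (spleen over bone marrow, log2) had opposite directions in VQ-D1 and t-VK12653 in both recipients for Cd37 and for Cd79b. For Cd37 the effect in VQ-D1 minus that in t-VK12653 was 1.86 (edgeR adjusted p = 0.0669). For Cd79b it was 0.37 (SE 0.243, edgeR adjusted p = 1): spleen had 171.8 and 176.9 CPM against 160.9 and 152.4 CPM in bone marrow of VQ-D1, and 77.86 and 83.63 CPM against 84.05 and 103.1 CPM in bone marrow of t-VK12653.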

How the results depend on the processing

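Of 3296 member values under alternatives, 3219 kept their direction and side of the threshold, 20 lost and 21 gained a call, and 36 changed sign, 0 of them for called members. In VQ against Control, 3 members and 2027 genes were called in bone marrow alone (5 and 3192 with all libraries), and 7786 genes in the mean of the lines, where Cd79b (−0.81), Fcrla (−2.93) and Ptprc (−4.65) gained a call and Blk (adjusted p = 1) lost it. Leaving out 1 library gave 4 to 5 members and 1148 to 3285 genes. Cd37 changed sign in the mean of the lines (−0.031), without line VQ-D4 (−0.41) and without VQ-D4 replicate 1 (−0.025; −0.025 to 0.27 over libraries left out). Ptprc in VQ-D4 over VQ-D5 changed sign without the tissue term (0.72) and was called without VQ-D5 replicate 4 (−1.28, adjusted p = 0.0122). RLE scaling moved the median of all genes in VQ against Control by −0.117, with 59.7% of calls higher under TMM and 50.6% under RLE.

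For sites, without the filter 218 genes (1 member) were called in spleen against bone marrow, 264 in lymph node against bone marrow, 179 (2 members) in lymph node against spleen and 82 (1 member) in the difference of spleen effects. DESeq2 called 41 (1 member), 40, 11 and 4 (1 member), in that order. A recipient block gave 18, 30 and 20 genes for the first 3, with Fcrla the 1 member called in each. Leaving out 1 library gave 0 to 22 genes and 0 to 1 members, 0 to 7 and 0 to 1, 0 to 5 and 0, and 0 to 2 and 0 to 1. The site calls thus depend on the filter, the tool and single libraries.

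The replicate block, with numbers that do not pair the libraries, gave 24, 5 and 1 genes for the same 3 site comparisons. Under it Fcrla was not called in lymph node against bone marrow (0 members; −1.52, adjusted p = 0.182), nor Cd37 in VQ-D5 against Control (−0.79, adjusted p = 0.0623). Same-numbered libraries had a mean correlation of 0.00837 (−0.222 to 0.142, 55 pairs), and 7 of 23 libraries correlated best with their own number. At these depths, members with 0 to 3 reads in a line gave only bounds or wide counting intervals.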
